A study of Homo sapiens with 6 samples.

Results

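H322 is a human non-small cell lung cancer line with wild-type EGFR, the receptor for epidermal growth factor (EGF). The comparison described here is its EGF-treated culture against its control culture, which are 2 of the 6 arrays of the series, chosen by their sample names. Each culture gave 1 Clarion S array, a whole-transcriptome microarray, hybridised with cRNA made from total RNA. EGF was given for 6 h at the dose the labels write as 100 ug/ml, and both H322 cultures carry the label wild-type. The medium is described as containing TNFa, and the labels do not say whether the control culture received it. The other 4 arrays are the EGFR-mutant lines PC-9 and HCC827, each as a control and after 6 h of 0.01 uM erlotinib, an inhibitor of the EGFR kinase. They appear below only beside the H322 values. With 1 array per condition there is no measure of replicate spread, so no difference below was tested, and each one is a difference between 2 arrays.

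EGF binding makes EGFR dimerise and phosphorylate itself, which switches on the RAS-RAF-MEK-ERK kinase cascade and the PI3K-AKT pathway. ERK induces an early burst of transcription factors, followed by later target genes and by phosphatases and adaptor proteins that turn the cascade down again. AKT phosphorylates FOXO transcription factors and keeps them out of the nucleus, so genes that FOXO drives are known to be low when the receptor is active.

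Signals are given as log2(intensity + 1), and a difference is EGF minus control on that scale, on which the fold of a dim gene is understated. The arrays held 24351 probe sets, of which 17709 have 1 gene symbol, and these gave 17687 genes. A gene was counted as different only where the higher of its H322 signals reached 7.30, the median of all probe sets on these 2 arrays, which 9040 genes did. Background was the 95th percentile of 612 negative control probe sets, which was 7.47 on the control array and 7.13 on the EGF array. Those 2 limits differ, and 483 genes were above background on the EGF array alone against 41 on the control array alone. Of 45 negative control probe sets whose higher signal reached the median level, 35 differed by at least 1.5-fold between the arrays and 30 by at least 2-fold. Choosing controls by their brighter array favours large differences. The middle 95% of all 612 differences ran from -2.48 to 2.66. A 2-fold difference in a dim gene is thus within what probe sets with no target showed. Genes varied less than these controls, with an SD of 0.36 below a mean log2 signal of 6.0 and 0.37 from 6.0 to 8.0. The range of the controls is therefore not the spread of dim genes. Where one array is below its limit, the fold is given as a lower bound, and where both are below, no fold is given.

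Both arrays showed an epithelial profile. All 8 epithelial markers were above background on both arrays, and 1 of 7 mesenchymal, 1 of 11 leukocyte, 1 of 7 fibroblast and 0 of 7 endothelial markers measured were above it on either array. The summed log2 signal of the epithelial markers was 18.70 on the control array and 18.77 on the EGF array, and that of the leukocyte markers was 8.66 and 8.90. CD68 was the leukocyte marker above background, on the EGF array alone. In bulk RNA such as this, fewer cells of a kind and less RNA per cell cannot be told apart.

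The arrays were close to each other. Across the 17687 genes their signals correlated at r = 0.996, and the differences had a median of 0.01 and an SD of 0.32. The SD was 0.37 for genes with a mean log2 signal from 6.0 to 8.0 and 0.13 for those at 14 or more. At least 2-fold higher signals on the EGF array were seen for 18 of the 9040 genes at the median level (0.199%), and at least 2-fold lower signals for 15 (0.166%). Among genes above background on both arrays the 2-fold counts were 9 and 9, and with dim signals raised to the limit of their array 11 and 9. At 1.5-fold the counts were 197 higher (2.18%) and 157 lower (1.74%). These counts use the difference as measured, so they include genes dim on one or both arrays. Of the 197, 134 had a measured fold, 50 a lower bound and 13 no fold, and of the 157 these were 120, 29 and 8. Among the 5068 genes with a mean log2 signal of at least 10, only ITGA2, AEN and ETV5 were at least 2-fold higher, and only CXCL10 and PGLYRP2 were at least 2-fold lower.

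**Figure D1:**
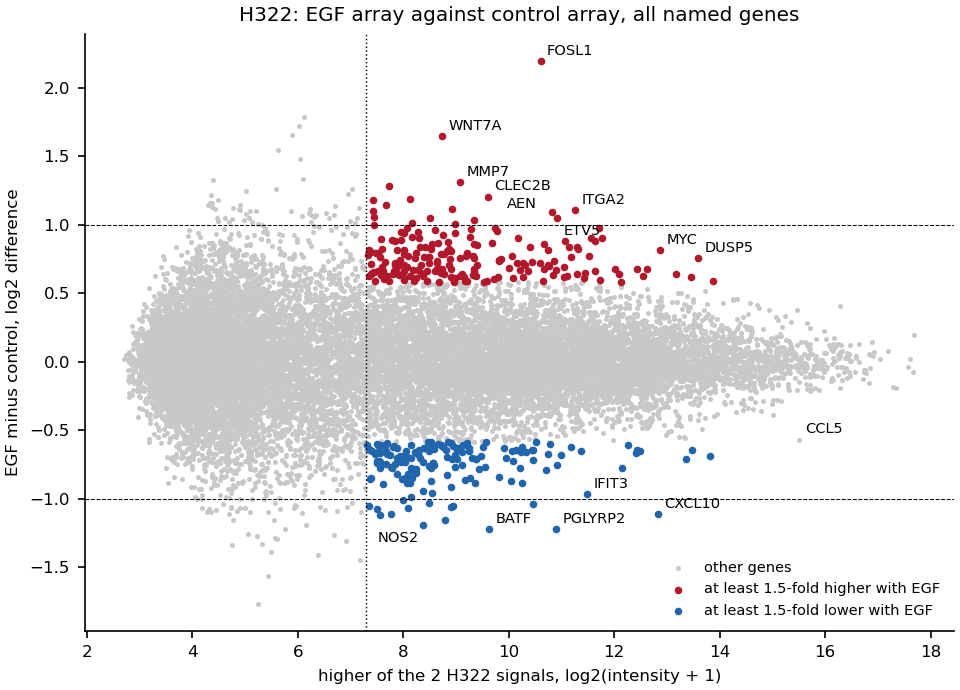
Each point is a gene, with the higher of its control and EGF log2 signals in H322 on the x axis and the EGF minus control log2 difference on the y axis. Red points are the 197 genes at least 1.5-fold higher and blue points the 157 at least 1.5-fold lower, the dotted line is the median level of 7.30, and the dashed lines mark 2-fold. FOSL1 stands apart at a difference of 2.20, and the scatter narrows from left to right.

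FOSL1, the AP-1 subunit FRA1 and a classical late target of ERK, showed the largest difference of all 9040 genes. Its log2 signal was 8.41 on the control array and 10.61 on the EGF array, a 4.59-fold difference. WNT7A, a secreted WNT ligand, was below background at 7.09 in the control and at 8.73 with EGF, at least 2.4-fold higher. MMP7, the matrix metalloproteinase matrilysin, read 7.77 and 9.08, a 2.48-fold difference. WNT7A and MMP7 thus lay at or near background in the control culture, and FOSL1 above it. CLEC2B, a C-type lectin-like membrane protein, went from 8.40 in the control to 9.61 with EGF (2.31-fold). The mitotic kinase gene NEK6 had signals of 7.80 and 8.92 (2.17-fold). ITGA2, the collagen-binding integrin alpha 2 subunit, had 10.16 and 11.27 (2.16-fold). The gene of the nuclease AEN read 9.74 in the control and 10.83 with EGF (2.13-fold), and is also on the list of p53 targets.

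Further genes near 2-fold higher were of several kinds. ETV5, a PEA3-type ETS transcription factor, measured 9.87 in the control and 10.92 with EGF (2.07-fold). FHL2, a LIM-domain cofactor, measured 8.31 and 9.35 (2.05-fold). SLC2A3, the glucose transporter GLUT3, was at 7.46 in the control, just under background, and at 8.50 with EGF, at least 2.05-fold higher. Its probe sequences may also match the near-identical SLC2A14, so the assignment is uncertain. Carriers of metabolites were among them: SLC25A22, a mitochondrial glutamate carrier (7.98 and 8.99, 2.01-fold), and SLC19A1, the reduced folate carrier (8.77 and 9.74, 1.97-fold). The magnesium transporter gene NIPAL1 was at 8.31 and 9.28 (1.96-fold). CCL22, a chemokine that attracts CCR4-bearing T cells, had 10.74 in the control and 11.72 with EGF (1.97-fold). RELT, a TNF receptor family member, had 7.64 and 8.60 (1.95-fold). The tRNA methyltransferase cofactor WDR4 was at least 1.62-fold higher, the peptide transporter SLC15A2 at least 1.52-fold, the transcription factor ZIC5 at least 1.57-fold, NOL4L at least 1.2-fold and the RAS GTPase-activating protein RASAL3 at least 1.15-fold. MAGEH1, TWNK, CD68 and KRT23 had differences of up to 1.18, but their control signals of 6.25 to 6.44 lay below background and no fold can be given. Their differences turned to -0.04 to -0.03 when dim signals were raised to the background limit of their array.

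The lowest differences were as follows. BATF, an AP-1 family factor best known from lymphocytes, was at 9.63 on the control array and 8.41 on the EGF array (2.34-fold lower). PGLYRP2, which cleaves bacterial peptidoglycan, was at 10.89 and 9.67 (2.33-fold lower). NOS2, the inducible nitric oxide synthase, had 8.38 in the control and 7.19 with EGF, just above background (2.29-fold lower). CXCL10, a chemokine induced by interferon, had 12.84 in the control and 11.72 with EGF (2.16-fold lower). The interferon-stimulated genes IFIT3 and OAS2 were 1.95-fold and 1.98-fold lower, with OAS2 at 7.16 on the EGF array, close to its limit.

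Other genes at this end were of various kinds. RNPC3, a protein of the minor spliceosome, read 8.79 and 7.64 (2.23-fold lower). CEACAM19 (8.90 and 7.85) and ANKRD6 (8.94 and 7.88) were both 2.08-fold lower. The protein O-mannosyltransferase gene POMT2 was at 10.46 in the control and 9.42 with EGF (2.05-fold lower), and the magnesium transport gene CNNM2 at 8.49 and 7.46 (2.04-fold lower). Genes below background with EGF had bounds only, and KCNJ2, a potassium channel, was at least 1.55-fold lower, TMEM131L at least 1.96-fold, DOCK4 at least 1.82-fold, CASTOR1 at least 1.41-fold, PDGFRL at least 1.29-fold and the non-coding MIR99AHG at least 1.35-fold. CPAMD8 was below background on both arrays, with signals of 7.35 and 6.30. RNF150 (1.95-fold), MGAM2 (1.89-fold), the lysosomal enzyme gene IDUA (1.85-fold) and the cytokine gene FLT3LG (1.84-fold) were also lower with EGF. SEPTIN14P20 (1.93-fold lower) is a pseudogene and CHKB-CPT1B (1.85-fold lower) a readthrough transcript, so both may carry signal of related or overlapping genes.

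ERK output genes were higher on the EGF array almost as a group. Of 26 genes on the list 24 were measured, and 23 of those reached the median level. Of those 23, 22 were higher and 1 lower, where 51% of all genes at that level were higher. Over the 24 the median difference was 0.57 against 0.01 over all genes. Over the 19 members above background on both arrays it was 0.41. At 1.5-fold, 11 were higher and 0 lower, beside 2.18% of all genes at the level for higher and 1.74% for lower. FOSL1, ITGA2 and ETV5 were the 3 past 2-fold. MYC, the growth-promoting transcription factor, had 12.06 in the control and 12.87 with EGF (1.76-fold). EPHA2, a receptor tyrosine kinase for ephrins, had 10.18 and 11.07 (1.85-fold). PHLDA1, a pleckstrin-homology domain protein, had 10.07 and 10.77 (1.63-fold). Each was well above background on both arrays, so these folds are measured ones. ETV4, a close relative of ETV5, was below background in the control at 7.32 and at 8.10 with EGF, at least 1.54-fold higher. The cytokine LIF and the urokinase receptor PLAUR were at least 1.41-fold and at least 1.3-fold higher. These bounds are under 1.5-fold, though both genes are among the 11. CCND1, cyclin D1, differed less, with 14.92 and 15.18 (1.19-fold). Urokinase itself, PLAU, read 16.49 on both arrays. The lower member was EPHA4, at -0.51, which is named here after its values were seen.

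F3 encodes tissue factor, the cell-surface starter of blood clotting, and had signals of 8.82 in the control and 9.78 with EGF, 1.94-fold higher. AP-1 elements, searched as TGANTCA on both strands in 250 bases before to 50 after the first listed gene start, were found in 5 of the 13 ERK output genes with a promoter in the RefSeq table (38.5%). They were found in 7.76% of all 27305 promoters and in 4.3% of those of genes at the median level. They were in 6.58% of promoters of genes at least 1.5-fold higher with EGF and in 6.2% of those at least 1.5-fold lower. The 5 were PLAUR, F3, IL11, SPHK1 and EMP1, whose differences ran from 0.07 to 0.96 with a median of 0.56, and the 8 without ran from -0.51 to 1.11 with a median of 0.30, ITGA2 being the highest. FOSL1, ETV5 and MYC are not among the 13. The 250 bases before the F3 start are shown because they hold AP-1 matches at positions -223 and -210, in capitals (GRCh38.p14, chr1:94541760-94542009, minus strand, RefSeq):
F3: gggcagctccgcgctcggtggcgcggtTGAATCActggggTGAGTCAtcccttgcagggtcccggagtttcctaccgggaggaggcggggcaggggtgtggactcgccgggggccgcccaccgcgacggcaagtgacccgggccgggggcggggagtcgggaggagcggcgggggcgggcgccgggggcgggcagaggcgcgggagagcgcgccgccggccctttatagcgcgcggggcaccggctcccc
A match describes letters in a window and is not evidence of binding.

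Genes that restrain the cascade were mixed. Of 10 dual-specificity phosphatases, which remove phosphate from ERK and related kinases, 7 were above background on an array. Beside 2.18% of all genes at the median level, 2 of the phosphatases were at least 1.5-fold higher. These were DUSP6, the ERK-selective cytoplasmic phosphatase, at 10.42 and 11.19 (1.7-fold), and DUSP5, its nuclear counterpart, at 12.84 and 13.60 (1.69-fold). DUSP4 read 9.72 and 9.79, and DUSP10 read 12.01 and 11.98. DUSP1, an immediate early phosphatase, was on the other side with 9.10 in the control and 8.59 with EGF (1.42-fold), as was DUSP16 at 9.30 and 9.01 (1.22-fold). DUSP7 lay at background, and DUSP2, DUSP8 and DUSP9 were below it on both arrays. The median of the 10 was 0.08, so the family did not share a direction.

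Sprouty, SPRED and related inhibitors had a median difference of 0.11 over 14 genes, with 9 higher, 5 lower and 0 past 1.5-fold. SPRY1 had the largest difference, with 12.41 in the control and 12.88 with EGF (1.38-fold). ERRFI1, or MIG6, which binds and blocks the EGFR kinase, had 15.87 and 16.27 (1.32-fold). SPRY4 measured 9.06 and 9.37 (1.24-fold) and SPRED1 10.64 and 10.84 (1.15-fold). SPRY2, SPRY3 and SPRED3 were at or below background. CBLB, a ubiquitin ligase for activated receptors, was lower with EGF at 11.21 and 10.86 (1.28-fold), while CBL, LRIG1, LRIG3, SPRED2, SOCS4 and SOCS5 had differences of -0.13 to 0.19.

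**Figure D2:**
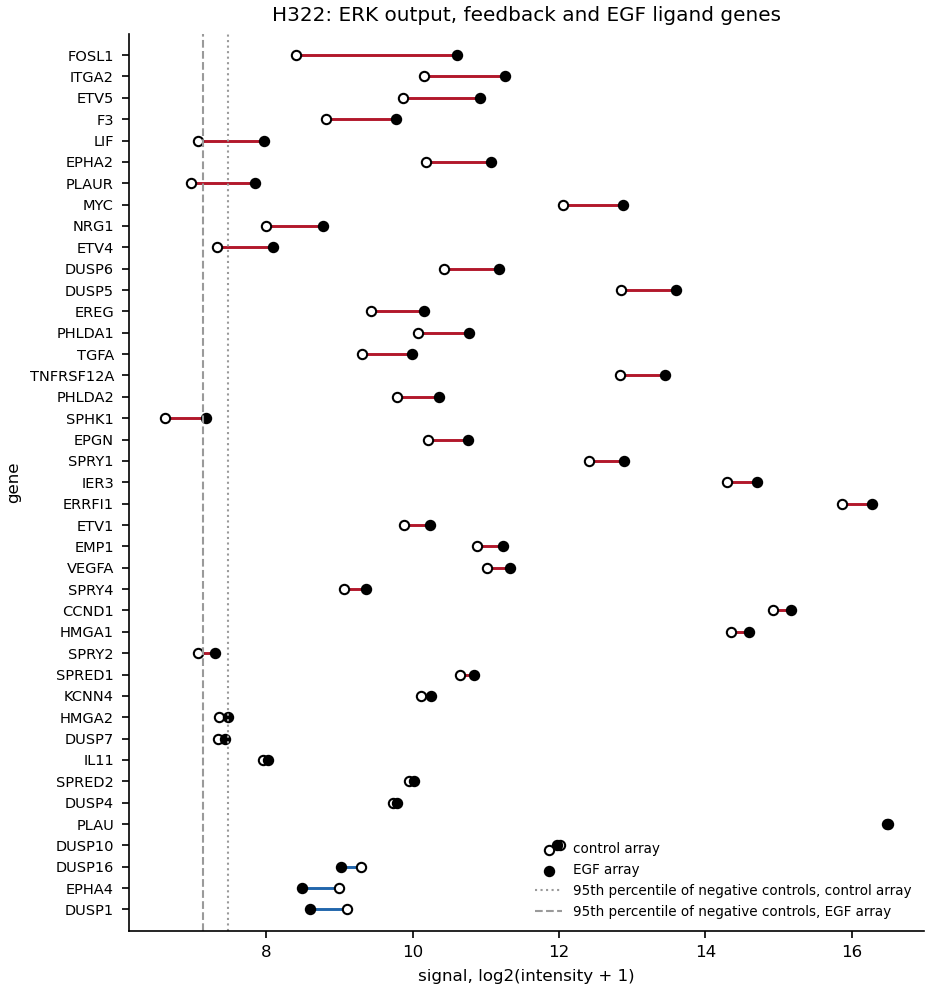
Each row is a gene of the ERK output, DUSP, Sprouty or EGF ligand lists that was above the negative controls on an H322 array, ordered by difference, with open circles for the control array and filled circles for the EGF array on a log2(intensity + 1) axis. Red lines join genes higher with EGF and blue lines genes lower with EGF, from FOSL1 at a difference of 2.20 to DUSP1 at -0.51.

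Among 12 AP-1 subunits the differences of members ran in both directions, with 6 higher, 6 lower and a median of -0.01. JUN had 8.72 and 9.09 (1.3-fold higher), JUND 8.98 and 9.39 (1.33-fold higher) and FOSL2 11.02 and 11.32 (1.23-fold higher). ATF3, a stress-induced member, was lower with EGF at 8.92 and 8.21 (1.64-fold), next to BATF. JUNB (11.69 and 11.58) and MAFF (7.75 and 7.72) were close between arrays, FOS, FOSB and MAFG were below background on both, and BATF3 was at background. Thus FOSL1 and BATF mark the ends of the family.

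Immediate early genes, which peak soon after a stimulus, had a median of 0.02 over 20 measured. Of the 15 at the median level, 2 were at least 1.5-fold higher and 0 lower, beside 2.18% and 1.74% of all genes there. The lowest difference in the list, -1.06, was in a gene under that level on both arrays. EGR1, the zinc finger factor often used as a readout of ERK, read 8.83 in the control and 8.61 with EGF. KLF6 (10.90 and 10.61) and KLF4 (9.39 and 9.12) were also slightly lower with EGF, and IER3, an ERK-induced survival gene, was 1.33-fold higher at 14.30 and 14.71. The 2 counted as higher were the matricellular genes CCN1, at 7.01 and 7.96, and CCN2, at 7.39 and 8.30. Both were below background in the control, so the folds are bounds of at least 1.4-fold for CCN1, under the threshold, and at least 1.78-fold for CCN2.

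Several ligands of the EGF family were themselves higher on the EGF array. TGFA, transforming growth factor alpha, had 9.31 in the control and was 0.69 higher with EGF (1.61-fold). EREG, epiregulin, had 9.43 and 10.15 (1.65-fold). NRG1, neuregulin 1, a ligand of ERBB3 and ERBB4, had 7.99 and 8.78 (1.73-fold), and EPGN, epigen, had 10.21 and 10.75 (1.46-fold). These 4 are all the measured ligands that were above background. The other 6 measured, EGF, HBEGF, BTC, NRG2, NRG3 and NRG4, were below background on both arrays. AREG, also on the list, was not among the genes measured. The median over the 10 was 0.45 and became -0.34 when dim signals were raised to the limit of their array, since that setting gives every gene dim on both arrays the difference of the limits.

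The receptors differed less. EGFR read 11.62 in the control and 11.57 with EGF, and ERBB3 read 11.98 and 11.86. MET (10.98 and 11.12), IGF1R (14.11 and 14.08), FGFR2 (9.94 and 9.95) and FGFR3 (8.16 and 8.26) were also within 1.1-fold. FGFR4, a fibroblast growth factor receptor, was higher with EGF at 8.13 and 8.76 (1.56-fold), MST1R, the receptor RON, was lower at 11.34 and 11.15 (1.14-fold), and INSR, the insulin receptor, was at least 1.32-fold lower. ERBB4 was below background in the control and at least 1.01-fold higher. AXL, FGFR1 and RET were below background on both arrays, and ERBB2, also on the list, was not among the genes measured. The median of the 13 receptors measured was 0.10.

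PI3K-AKT and FOXO target genes were mostly lower on the EGF array. Of 25 measured, 18 were above background on an array, 19 were lower and 6 higher, and the median was -0.23. Over all genes at the median level, 51% were higher and 1.74% at least 1.5-fold lower. On this list, 15 of the 17 members at that level were lower and 2 higher, and 2 were at least 1.5-fold lower. TP53INP1, an autophagy and stress protein, had 10.25 in the control and 9.36 with EGF (1.85-fold lower). INSR was the other, by a difference of -0.62 that gives only the bound of at least 1.32-fold. The unconventional cyclin CCNG2 (12.72 and 12.29, 1.35-fold lower), the ubiquitin ligase gene FBXO32 (13.19 and 12.79, 1.31-fold lower), KLHL24 (10.62 and 10.28, 1.27-fold lower) and TCP11L2 (9.75 and 9.42, 1.25-fold lower) followed in the same direction. TXNIP, an inhibitor of glucose uptake, was below background on both H322 arrays.

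BCL2 family members, some of which FOXO factors and ERK are known to control, did not share a direction. The pro-apoptotic members named here with a measured fold, BMF, BCL2L11 and BAD, were lower. BMF had 8.15 in the control and 7.45 with EGF (1.63-fold lower), and BCL2L11, or BIM, had 11.33 and 10.91 (1.34-fold lower). BAD (9.92 and 9.45), BCL2 (9.08 and 8.51) and BCL2A1 (9.06 and 8.63) were 1.38-fold, 1.48-fold and 1.34-fold lower, of which BCL2 and BCL2A1 protect cells. The pro-apoptotic gene HRK was below background in the control at 7.29 and at 7.69 with EGF, at least 1.16-fold higher. MCL1, another survival protein, read 14.19 and 14.40 (1.16-fold higher). Over 15 measured members of the family the median was 0.02, with 8 higher and 7 lower. Over the 13 above background on both arrays the median was -0.22.

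Glucose use genes leaned higher. The glycolysis list had a median of 0.17 over 20 measured genes, with 3 at least 1.5-fold higher and 0 lower, beside 2.18% and 1.74% of all genes at the level. Besides SLC2A3 these were PDK1, which brakes pyruvate dehydrogenase (9.07 and 9.81, 1.67-fold), and PFKP, a phosphofructokinase (11.92 and 12.54, 1.54-fold). Hexokinase 2, HK2, had 8.33 and 8.74 (1.33-fold), LDHA 15.09 and 15.47 (1.3-fold), SLC2A1, or GLUT1, 13.62 and 13.88 (1.2-fold) and PGAM1 11.96 and 12.22 (1.2-fold). Hypoxia markers, which overlap in function, had a median of 0.05 over 13. The 9 above background on both arrays had a median of 0.32. Of the 9 at the median level, 8 were higher and 1 lower. EGLN3, an oxygen-sensing hydroxylase, was 1.58-fold higher at 7.78 and 8.44, and the angiogenic factor VEGFA 1.25-fold higher at 11.01 and 11.33, while adrenomedullin, ADM, was 1.14-fold lower.

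Ribosome biogenesis factors were higher on the EGF array in nearly every case. Of 30 on the list 25 were measured, 22 were higher and 3 lower, the median was 0.21, and 4 were at least 1.5-fold higher against 0 lower. At the median level 20 of 22 members were higher, where over all genes there 51% were higher and 2.18% at least 1.5-fold higher. NOLC1, a nucleolar chaperone, had 10.75 in the control and 11.63 with EGF (1.84-fold). WDR12, a 60S assembly factor, had 8.31 and 9.07 (1.69-fold). NOP16 had 9.98 and 10.66 (1.6-fold), and the RNA helicase gene DDX21 had 12.53 and 13.16 (1.56-fold). RRS1 and PNO1 followed at 1.45-fold each. The E-box CACGTG, the element that MYC-MAX dimers are known to bind, was in 8 of the 21 promoters found for the list (38.1%), against 7.43% of all promoters and 10.4% of those of genes at the median level. It was in 19 of 152 promoters of genes at least 1.5-fold higher (12.5%) and in 6 of 129 of those at least 1.5-fold lower (4.65%). Within the list, the 8 with the E-box had a median of 0.20 and the 13 without 0.10.

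The MYC network list, which includes MYC, had 7 of 11 measured members above background on an array. MLX, a dimer partner of glucose-sensing factors, was 1.37-fold higher (10.45 and 10.91), and MXD1, a MYC antagonist, was 1.31-fold lower (10.60 and 10.22). MXI1, another antagonist, differed by 1.09-fold, MLXIP was at least 1.18-fold higher and MNT was at background. The list median of 0.36 turned to -0.29 with dim signals raised to the limit of their array, so its sign rests on dim genes.

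Cell cycle genes split by phase. The G1/S and DNA replication list had a median of 0.29, with 24 of 29 measured members higher and 5 lower. Of the 27 at the median level, 22 were higher and 2 at least 1.5-fold higher, beside 51% and 2.18% of all genes there. The replisome subunit gene GINS2 had 9.29 in the control and 10.06 with EGF (1.7-fold), and POLE2, a DNA polymerase epsilon subunit, had 7.72 and 8.49 (1.7-fold). The licensing factor CDT1 (8.57 and 9.14, 1.49-fold), the helicase subunit MCM6 (9.01 and 9.54, 1.45-fold), UHRF1 (9.24 and 9.83, 1.5-fold) and E2F3 (7.57 and 8.13, 1.48-fold) were close behind. Among 14 measured cyclins, CDKs and inhibitors, with a median of 0.24, CCNE1, cyclin E1, had 9.18 and 9.80 (1.54-fold higher) and CDKN2D was at least 1.46-fold higher. CDK6 (10.52 and 10.79) and CCNE2 (10.21 and 10.48) were 1.2-fold and 1.21-fold higher. The G2/M list went the other way, with 23 of 28 members lower, 5 higher, a median of -0.13 and 0 past 1.5-fold. That too stands beside 51% higher over all genes at the level. HMMR had 9.29 and 8.80 (1.4-fold lower), the spindle kinesin gene KIF11 10.30 and 9.83 (1.38-fold lower), NEK2 11.86 and 11.45 (1.33-fold lower) and CENPA 9.46 and 9.06 (1.32-fold lower). KIF20A and the checkpoint kinase gene BUB1 were 1.29-fold and 1.24-fold lower.

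**Figure D3:**
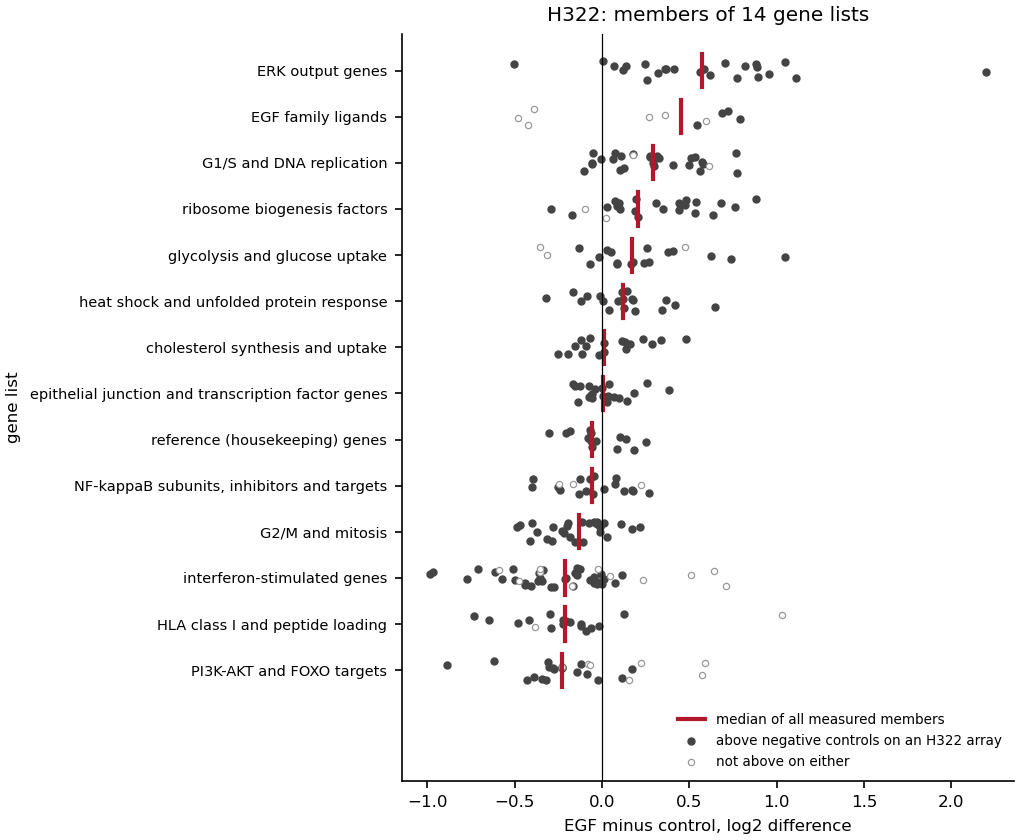
Each row is a gene list and each point a measured member, placed by its EGF minus control log2 difference in H322, with filled points above the negative controls on an H322 array, open points not above on either, and red bars at the median. Medians run from 0.57 for ERK output genes through 0.00 for epithelial junction genes to -0.23 for PI3K-AKT and FOXO targets.

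Interferon-stimulated genes were lower on the EGF array in 37 of 46 measured cases and higher in 9, with 35 above background on an array. The median was -0.21. Of the 35 members at the median level, 31 were lower and 4 higher, with 0 at least 1.5-fold higher and 5 at least 1.5-fold lower. Over all genes at that level, 51% were higher, 2.18% at least 1.5-fold higher and 1.74% at least 1.5-fold lower. OAS2, IFIT3, IFIT2, SAMD9L and GBP4 were the 5 lower members. MX1 and IFI27, named here after their values were seen, had differences of 0.71 and 0.64, but lay under the median level on both arrays and were not counted. IFIT3, an RNA-binding antiviral protein, had 11.49 in the control and 10.53 with EGF. IFIT2 had 10.21 and 9.43 (1.71-fold lower), and SAMD9L 13.35 and 12.64 (1.63-fold lower). The guanylate-binding protein gene GBP4 had 12.26 and 11.65 (1.53-fold lower) and the apoptosis-linked XAF1 8.42 and 7.85 (1.49-fold lower). The IFIT genes resemble each other in sequence, and probes may share signal between them. ISG15 lay at background, and OAS3, HERC6, LGALS3BP and OAS1 had differences of -0.02 to 0.01, so the lean was not shared by every member.

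Antigen presentation leaned with them. In the HLA class I and peptide loading list, 16 of 18 measured members were lower and 2 higher, and the median was -0.21. Of the 16 at the median level, 15 were lower and 1 higher. At least 1.5-fold lower were 2, beside 1.74% of all genes at that level, of which 51% were higher by any amount. The largest difference in the list, 1.03 in NLRC5, named after its value was seen, is between signals below background on both arrays. The peptide-trimming protease gene ERAP2 had 8.04 and 7.30 (1.67-fold lower), and TAPBPL, a peptide editor, had 8.49 and 7.84 (1.57-fold lower). PSMB9, an immunoproteasome subunit, was at 12.63 and 12.15 (1.4-fold lower), PSMB10 at 13.63 and 13.33 (1.23-fold lower), and the peptide transporter gene TAP1 at 11.62 and 11.20 (1.33-fold lower). HLA-E had 11.81 and 11.51 (1.23-fold lower) and B2M, the common light chain, 15.89 and 15.69 (1.15-fold lower). HLA genes are close in sequence, so values of single HLA genes are uncertain.

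Chemokines for T cells did not share a direction. CXCL10, which draws CXCR3-bearing T cells, was 2.16-fold lower with EGF, and CCL5 was 1.48-fold lower at 15.50 and 14.93. CCL22, as given above, was 1.97-fold higher. CCL20 (14.99 and 14.82), CCL17 (8.06 and 7.93), CCL28 (8.31 and 8.19) and CXCL16 (14.18 and 14.28) were within 1.12-fold. The list median was -0.13 over 13 genes, of which 7 were above background on an array.

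The interferon-stimulated response element, searched as a pair of GAAA blocks 2 bases apart on both strands, was in 25 of 37 promoters found for interferon-stimulated genes (67.6%). It was in 3.65% of all promoters and in 2.78% of those of genes at the median level. Of genes at least 1.5-fold lower with EGF it was in 9 of 129 promoters (6.98%), and of those at least 1.5-fold higher in 5 of 152 (3.29%). Within the interferon list, the 25 genes with a match had a median difference of -0.16 and the 12 without a match -0.35, so the letters did not mark the lower members. The promoters of CXCL10 and IFIT3 are shown because both genes were among the 25 lowest and hold matches before the start. OAS2, at -0.99 against -0.97 for IFIT3, has no promoter among the 37. Capitals in CXCL10 (chr4:76023498-76023747, minus strand) mark the interferon element at -221 and kappaB elements at -177 and -122, and capitals in IFIT3 (chr10:89327747-89327996, plus strand) mark interferon elements read from the other strand at -156 and -122 (GRCh38.p14, RefSeq):
CXCL10: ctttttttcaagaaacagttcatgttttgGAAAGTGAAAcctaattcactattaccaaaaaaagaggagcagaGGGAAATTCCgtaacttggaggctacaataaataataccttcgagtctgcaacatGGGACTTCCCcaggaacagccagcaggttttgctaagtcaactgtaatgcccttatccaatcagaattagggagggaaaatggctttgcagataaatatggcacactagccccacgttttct
IFIT3: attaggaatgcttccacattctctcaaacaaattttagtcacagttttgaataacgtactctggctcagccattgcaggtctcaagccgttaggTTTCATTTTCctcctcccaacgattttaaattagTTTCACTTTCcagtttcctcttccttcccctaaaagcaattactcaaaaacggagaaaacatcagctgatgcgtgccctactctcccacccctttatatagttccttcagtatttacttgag
KappaB elements were in 10.8% of all promoters, in 12.9% of those of genes at the median level, in 15.5% of those of genes at least 1.5-fold lower and in 10.5% of those at least 1.5-fold higher.

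**Figure D4:**
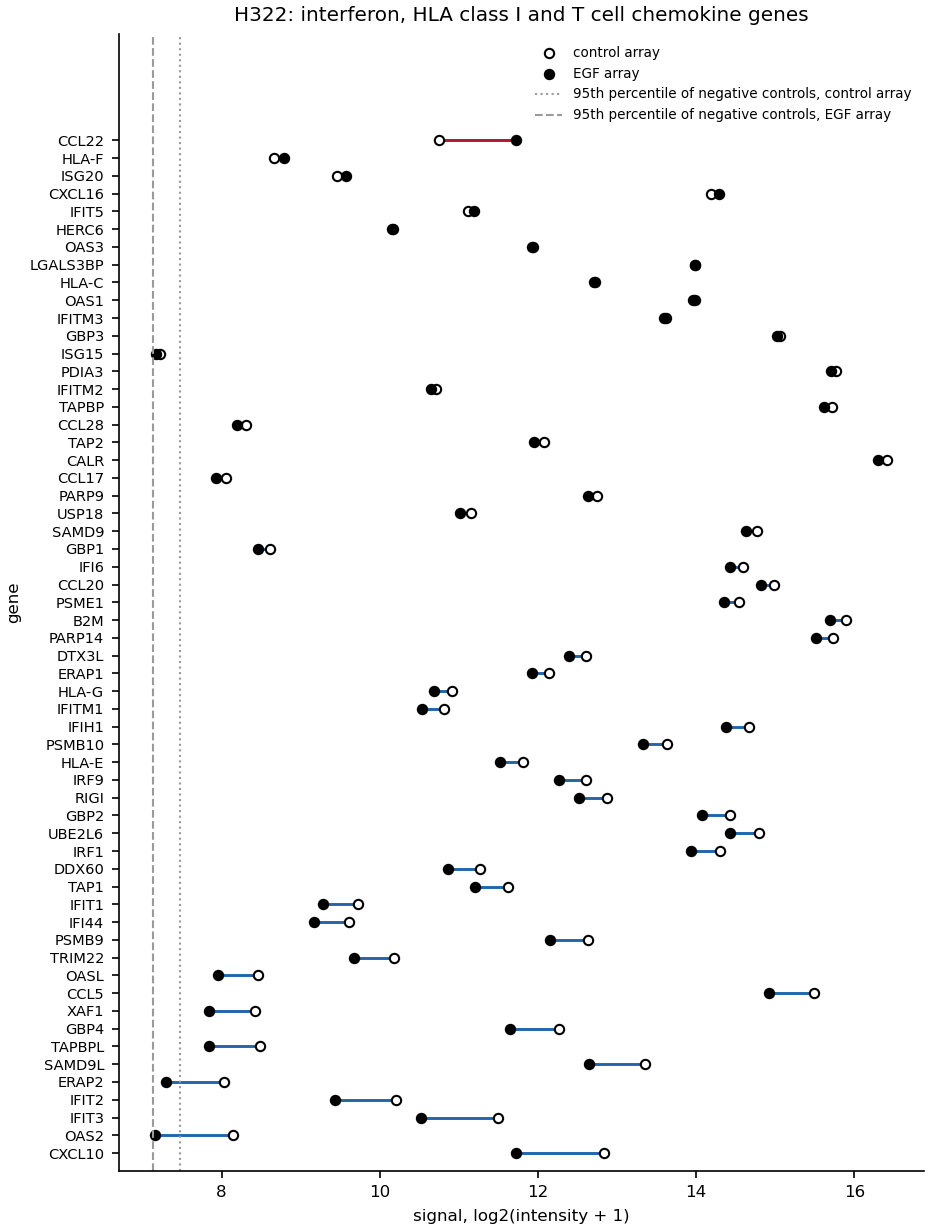
Each row is an interferon-stimulated, HLA class I or T cell chemokine gene above the negative controls on an H322 array, ordered by difference, with open circles for the control array and filled circles for the EGF array on a log2(intensity + 1) axis. Blue lines mark genes lower with EGF, down to CXCL10 at -1.11, and the red line at the top is CCL22 at 0.97.

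Inflammatory genes outside the interferon group mostly showed small differences, with exceptions such as IL1B below and NOS2 above. The NF-kappaB list had a median of -0.06 over 20 measured genes, with 0 past 1.5-fold in either direction. The largest were RELB, a subunit of the alternative pathway (12.48 and 12.07, 1.32-fold lower), and the deubiquitinase gene CYLD (12.42 and 12.03, 1.31-fold lower). LTB (9.63 and 9.37) was 1.19-fold lower, and TNFAIP8 and NFKBIE (10.30 and 10.48) were 1.21-fold and 1.13-fold higher. IL1B, interleukin 1 beta, had 7.82 in the control and 8.75 with EGF (1.9-fold higher). CXCL8, a neutrophil chemokine, read 14.91 and 15.24 (1.26-fold higher), CXCL5 was 1.28-fold higher, CXCL3 1.22-fold lower and CXCL2 1.08-fold lower. The neutrophil list had a median of 0.14, with 4 of 14 genes above background on an array, and the median was -0.34 with dim signals raised to the limit of their array. Of the interleukin 1 and 6 family, 4 of 14 were above background on an array, its median of 0.32 turned to -0.34 under the floor on dim signals, and IL6 was below background on both arrays.

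Prostaglandin genes had a median of -0.17 over 15, and the receptor PTGER4 was at least 1.79-fold lower with EGF. PTGS2, or COX-2, had 9.71 and 9.47 (1.18-fold lower), and PLA2G4A, which frees arachidonic acid, had 8.26 and 7.77 (1.41-fold lower). Checkpoint ligands had a median of 0.01 over 18, with 0 past 1.5-fold. CD274, or PD-L1, read 10.98 in the control and 10.86 with EGF. PVR, a ligand of TIGIT, was 1.44-fold higher (10.66 and 11.19), CD276 1.34-fold higher (12.04 and 12.46) and NECTIN2 1.34-fold lower (10.03 and 9.61). Death ligand and receptor genes had a median of -0.05 over 11, with TNFSF10, or TRAIL, at 14.62 and 14.28 (1.27-fold lower), FAS 1.37-fold lower, and the TRAIL receptor gene TNFRSF10A 1.48-fold higher (8.24 and 8.81). SOCS family genes, feedback inhibitors of cytokine receptors, had a median of 0.10 over 8, with 4 above background on an array, and -0.27 under the same floor.

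Genes that act on the matrix or on adhesion differed one by one rather than by list. Of 16 metalloproteinases and TIMPs only 5 were above background on an array. MMP7 was the largest, and TIMP1, an inhibitor of the same proteases, had 9.71 in the control and 10.44 with EGF (1.66-fold higher). MMP15 was 1.32-fold higher, and MMP10 and MMP13 were within 1.05-fold. The list median was 0.17, and -0.34 with dim signals raised to the limit of their array. The 250 bases before the MMP7 start hold 1 AP-1 match at position -67, in capitals, and are shown because MMP7 had the largest measured fold after FOSL1 (GRCh38.p14, chr11:102530748-102530997, minus strand, RefSeq):
MMP7: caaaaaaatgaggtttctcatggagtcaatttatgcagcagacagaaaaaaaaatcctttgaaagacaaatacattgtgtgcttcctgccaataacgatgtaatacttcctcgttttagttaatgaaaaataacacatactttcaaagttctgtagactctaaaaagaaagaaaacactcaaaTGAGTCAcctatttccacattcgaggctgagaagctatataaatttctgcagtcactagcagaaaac
The plasminogen system had a median of 0.03 over 10 measured, and integrin and laminin subunits -0.08 over 12. ITGA2 was alone among the latter in passing 1.5-fold, beside ITGB4 (1.22-fold higher), ITGB5 (1.13-fold lower), LAMC1 (1.11-fold lower), ITGA6 and ITGAV (1.1-fold lower each).

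Epithelial identity genes were nearly level. Epithelial junction and transcription factor genes had a median of 0.00 over 22 measured, with 11 higher, 11 lower and 0 past 1.5-fold. CLDN1, a tight junction claudin, had the largest difference, 14.56 and 14.94 (1.3-fold higher). Of 18 mesenchymal genes and transition factors 5 were above background on an array, with PRRX1 at 8.48 and 8.81 (1.26-fold higher). The list median was -0.06, and 0.20 over the 4 above background on both arrays. At the median level, 4 were higher and 0 lower. Squamous and stress keratin genes leaned higher, with 20 of 25 measured higher. At the median level 13 of 16 were higher, where 51% of all genes there were higher. Of the 25, 16 were above background on an array. Their median of 0.27 turned to -0.03 under the floor on dim signals. KRT80 had 8.36 and 9.27 (1.88-fold higher), SPRR1A 13.05 and 13.49 (1.36-fold higher) and KRT16 10.07 and 10.50 (1.34-fold higher), though keratin and SPRR genes have close relatives in sequence. Of 25 lung lineage genes 7 were above background, and all 7 of those were lower with EGF by small amounts. They included SOX9 (13.18 and 12.72, 1.38-fold lower), SCGB1A1, the club cell secretoglobin (11.79 and 11.43, 1.28-fold lower), GATA6 (9.57 and 9.21, 1.29-fold lower), MUC1 (1.17-fold lower), FOXA1 (1.09-fold lower) and SOX2 (1.06-fold lower). The median over the 25 was -0.01, and -0.34 under that floor.

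Developmental pathways had members at both ends. WNT and NOTCH genes had a median of 0.01 over 21, and -0.34 under the floor on dim signals. WNT7B was higher with EGF at 8.59 and 9.34 (1.69-fold), like WNT7A. RNF43, which removes WNT receptors, was lower at 10.13 and 9.49 (1.57-fold), NRARP, a NOTCH feedback gene, was lower at 9.96 and 9.25 (1.63-fold), and NOTCH1 (1.45-fold), NOTCH3 (1.33-fold) and HEY1 (1.32-fold) were lower as well. The WNT7 ligands and the NOTCH genes named here thus stood on opposite sides. They were named for their large differences, and of the 13 list members at the median level 7 were higher and 6 lower. TGF-beta, BMP and ID genes had a median of 0.04 over 21, with ID2, an inhibitor of helix-loop-helix factors, at 10.70 and 9.91 (1.73-fold lower) and the receptor TGFBR2 at 10.48 and 11.11 (1.55-fold higher). ID1 and ID3 were 1.1-fold and 1.31-fold higher. YAP/TEAD targets had a median of 0.08 over 19, with CCN1, CCN2 and F3 past 1.5-fold and CRIM1 1.42-fold lower (13.08 and 12.57).

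Metabolic and stress programmes had medians close to that of all genes. Cholesterol synthesis genes had a median of 0.01 over 18 and fatty acid synthesis genes 0.05 over 10, each with 0 past 1.5-fold. Mevalonate kinase, MVK, was 1.4-fold higher (9.18 and 9.66) and squalene epoxidase, SQLE, 1.26-fold higher. ATF4 and amino acid transport genes had a median of 0.00 over 23, with SLC7A1, an arginine transporter, 1.4-fold higher (11.63 and 12.12) and SLC38A2 1.31-fold higher (14.35 and 14.75). Heat shock and unfolded protein genes had a median of 0.12 over 19, with the mitochondrial chaperone gene HSPD1 1.34-fold higher (13.34 and 13.76) and SDF2L1 below background in the control. NRF2 targets had a median of -0.05 over 19, with GPX2 1.33-fold lower (13.72 and 13.31). Aryl hydrocarbon receptor and xenobiotic genes had a median of 0.11 over 13, with the retinaldehyde dehydrogenase genes apart from each other, ALDH1A1 1.69-fold lower (9.12 and 8.36) and ALDH1A3 1.42-fold higher (12.76 and 13.26). Primary cilium genes had a median of -0.06 over 30, with the hedgehog receptor PTCH1 (9.49 and 8.91) and IFT172 (10.04 and 9.46) each 1.49-fold lower. p53 targets had a median of 0.06 over 21, with AEN and PHLDA3 (7.92 and 8.71, 1.73-fold) higher and TP53INP1 lower. Reference genes had a median of -0.06 over 14, from POLR2A at -0.30 to TBP at 0.25.

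Erlotinib in the EGFR-mutant lines acts on the same receptor from the other side, and the 3 comparisons share no array. Line, genotype and agent all differ, and no difference between comparisons was tested. Over 7933 genes at the median level in all 3 lines, the EGF difference in H322 correlated with the erlotinib difference at r = -0.338 in PC-9 and r = -0.407 in HCC827, across genes, which are not independent of each other. In that set 148 genes (1.87%) were at least 1.5-fold higher with EGF and 84 (1.06%) lower, while 320 (4.03%) were at least 1.5-fold lower with erlotinib in both lines and 298 (3.76%) higher. The EGF-higher and erlotinib-lower genes shared 52, which is 35.1% of the former and 16.2% of the latter. The EGF-lower and erlotinib-higher genes shared 17, which is 20.2% and 5.7%. In like directions, 2 were higher with both and 0 lower with both.

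FOSL1, 2.20 higher with EGF, had erlotinib differences of -5.08 in PC-9 and -5.17 in HCC827. AEN had -2.47 and -2.14, NIPAL1 -2.31 and -3.31, SLC19A1 -1.49 and -1.48, and ITGA2 -1.54 and -1.18. The ribosome assembly gene RRP15 (10.65 and 11.56 in H322, 1.87-fold higher) had -1.02 and -1.25. RCL1, another such gene, was at least 1.75-fold higher with EGF, and in HCC827 with erlotinib 2.38-fold lower, the PC-9 bound being at least 1.32-fold. FERMT1, an integrin activator, was 1.87-fold higher with EGF (10.86 and 11.77) and had -0.97 and -1.13. In the other direction, BMF was 1.63-fold lower with EGF, and HCC827 had 8.57-fold more signal with erlotinib, the PC-9 bound being at least 3.2-fold. TP53INP1, 1.85-fold lower with EGF, had at least 5.84-fold more signal in HCC827 with erlotinib, and PC-9 had 2.2-fold more. The autophagy kinase gene ULK1 (9.25 and 8.59 in H322) had 1.01 and 1.80, and the GTPase gene RND1 (8.23 and 7.42) 1.45 and 1.76. For IFIT2 the HCC827 signal was 2.91-fold higher with erlotinib, and the PC-9 bound was at least 1.62-fold. SMPDL3A, DNAJB4, FBXO8, ZSCAN31, CLEC2D, PDGFRL and ATF3 were of the same kind. MMP7 and CLEC2B were the 2 genes counted as higher with both agents. For MMP7 the erlotinib differences were 1.21 in PC-9 and 1.01 in HCC827. CLEC2B had 1.73 in PC-9, while its HCC827 control signal was below background and allows only a bound of at least 1.2-fold.

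Opposite values were not seen for every gene, and sizes differed. ETV5, 1.05 higher with EGF, had -3.36 with erlotinib in PC-9 and 0.06 in HCC827. CD274 was 1.09-fold lower with EGF, and erlotinib went with a signal 3.14-fold lower in HCC827, while for PC-9 the bound was at least 5.9-fold lower. CCND1, on the opposite sides, was 0.26 with EGF against -2.14 and -2.08. SPRY4 was 0.31 with EGF and, in HCC827 with erlotinib, 2.31-fold lower, while in PC-9 its erlotinib signal was below background and the bound is at least 1.02-fold. Lists had the following medians in PC-9 and HCC827 beside those of H322. ERK output genes had -1.57 and -1.07 beside 0.57. Ribosome biogenesis factors had -0.80 and -1.08 beside 0.21. FOXO targets had 0.74 and 1.49 beside -0.23, G2/M genes 0.45 and 0.59 beside -0.13, and interferon-stimulated genes 0.26 and 0.36 beside -0.21. The G1/S list had -0.03 and 0.04 beside 0.29 in H322, so for that list the erlotinib medians were near 0.

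**Figure D5:**
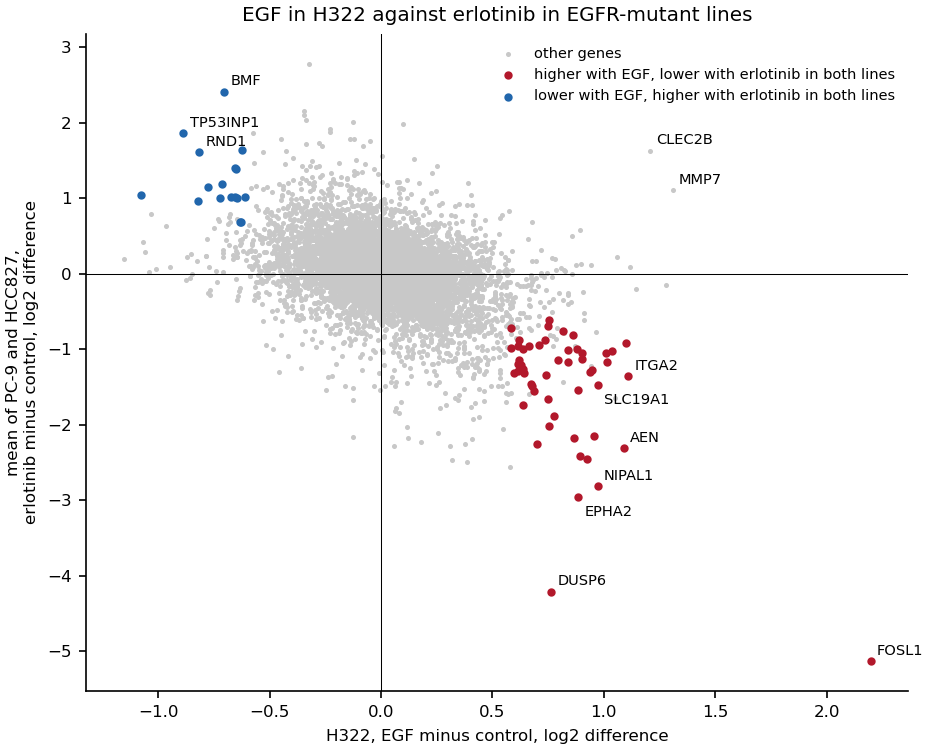
Each point is a gene at the median level in all 3 lines, with the EGF minus control log2 difference in H322 on the x axis and the mean erlotinib minus control log2 difference of PC-9 and HCC827 on the y axis. Red points are the 52 genes at least 1.5-fold higher with EGF and lower with erlotinib in both lines, blue points the 17 in the other direction, and MMP7 and CLEC2B lie alone at the upper right.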

How the data were processed

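The authors deposited 1 table of intensity values for 6 Clarion S arrays, on a linear scale and already brought to near-equal medians. Affymetrix Expression Console is named in the submitters' processing notes, with version, background correction, summarisation and build not given in the sources used here. Values were taken as log2(intensity + 1), the brightest of several probe sets stood for a gene, and symbols came from the platform's annotation, checked against RefSeq. No replicate exists, so no test was run. The number of arrays limits the precision. Scripts used Python 3.11.15, pandas 2.3.3 and numpy 2.4.6 and were tested on simulated data.

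The members and lists were chosen with earlier results of these data known. Genes named are the 25 highest and the 25 lowest at the median level, a short list of EGFR and inflammation genes, up to 6 further members with the largest differences of each of 45 lists, every DUSP, Sprouty, AP-1, EGF ligand and ERBB member, and the 12 largest opposite differences each way beside erlotinib. Alternatives were the offset, scaling, quantile normalization, filters on level, the choice of probe set and a floor on dim signals.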

Additional observations from a re-analysis of the deposited data

Results flagged for a closer look

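Probe sets without a gene symbol lie outside the comparisons above. Of 3739 of them that are not controls, 1218 reached the median level, and of these 22 were at least 1.5-fold brighter on the EGF array than on the control array, while 21 were at least 1.5-fold dimmer. At 2-fold, 0 were brighter and 3 dimmer. They are flagged because they show signal in data that no comparison uses, and they are not named here.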

How the results depend on the processing

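No paired analysis was possible because each group has 1 array, and for the same reason no array could be left out in turn. An offset of 16 in place of 1, centring on array medians, quantile normalization and the mean of a gene's probe sets moved the 45 list medians by at most 0.11 and the 331 named genes by at most 0.26, and moved none of 6 counts by over 1.5 times. Medians near 0 could change sign, 1 under centring and 1 under the mean of probe sets. Taking medians over members above background on at least 1 H322 array moved them by at most 0.27, and 7 changed sign. Keeping genes above background on both arrays gave 9 at least 2-fold higher and 9 lower, and 8 medians changed sign. With no filter the counts were 70 and 63 at 2-fold, 665 and 618 at 1.5-fold, and 34 for genes lower with EGF and higher with erlotinib in both lines. Raising dim signals to the limit of their own array gave 11 and 9 at 2-fold, and 17 medians changed sign. It gave medians of -0.34 for EGF family ligands, interleukin 1 and 6 cytokines, neutrophil chemokines, lung lineage genes, metalloproteinases, and WNT and NOTCH genes, -0.29 for the MYC network, -0.27 for the SOCS family and -0.03 for squamous keratins. Under it MAGEH1 and TWNK went to -0.04, CD68 and KRT23 to -0.03, HBEGF to -0.34 and SDF2L1 to -0.06. That setting gives a gene dim on both arrays the difference of the limits by construction. An added alternative, chosen after seeing the data, raised dim signals to 1 value for both arrays and gave 11 and 8 at 2-fold and medians of 0.00 for EGF family ligands, the MYC network and interleukin 1 and 6 cytokines.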

Other observations

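Lists put together after the differences had been seen are given here as values only. Further ribosome assembly factors had a median of 0.34 over 36 measured genes, with 32 higher on the EGF array, 4 lower and 6 at least 1.5-fold higher. One-carbon and nucleotide synthesis genes, which supply building blocks for DNA, had a median of 0.26 over 24, with 21 higher, 3 lower and 3 at least 1.5-fold higher. At the median level, 31 of 35 and 21 of 23 members of these 2 lists were higher. Over all genes there, 51% were higher and 2.18% at least 1.5-fold higher. RNA polymerase I and III subunits had 0.13 over 17, aminoacyl-tRNA synthetases, which load amino acids onto tRNAs, 0.11 over 31, and mitochondrial ribosomal proteins 0.10 over 71. The APOL family and other interferon-inducible immunity genes had -0.21 over 21, with 4 higher and 17 lower.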
